A study of Mus musculus with 12 samples.

Results

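The natriuretic peptide system was followed in mouse hearts through 7 genes: the ligands Nppa, Nppb and Nppc, the receptors Npr1, Npr2 and Npr3, and the processing enzyme Corin. They were taken by name from a table of 55401 gene rows, and all 7 were among the 16213 genes that passed the filter on low counts. RNA of whole heart tissue was measured in 12 libraries from wild-type mice of the inbred strain C57BL/6J, 3 for each combination of sex and of exercised or sedentary life. Exercise meant treadmill running at 1 km/h, 45 min a day, 5 days in the week, over 6 weeks, and the sedentary animals were age-matched and stayed caged. No transgene or drug was used in any group, the ages are not given in the labels, and that a library is 1 animal is an assumption, as no label says it. The series asks which transcripts this exercise changes in each sex.

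Atrial natriuretic peptide (from Nppa) and B-type natriuretic peptide (from Nppb) are hormones that heart muscle releases when it is stretched, and they lower blood pressure by acting on kidney and vessels. Both signal through Npr1, a receptor that makes cyclic GMP inside the cell, while C-type natriuretic peptide (from Nppc) signals through the related Npr2. Npr3 takes up all of these peptides and clears them, and Corin is the protease on the surface of heart muscle cells that cuts the atrial precursor into its active form. In the adult ventricle Nppa is low after birth and is known to return under load, which is why it is read as a load marker.

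The ligands share a ring closed by a bond between 2 cysteines, the part that the receptors bind. Its coding bases are shown for Nppb and Nppc because the ring is the sequence the family has in common. The ring of Nppa is not reported here, so the equality given is that of this pair alone. They were read from the GENCODE M21 transcripts of GRCm38, and the capitals mark the cysteine codons that close the ring:
Nppb: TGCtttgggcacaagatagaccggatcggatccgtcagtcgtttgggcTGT
Nppc: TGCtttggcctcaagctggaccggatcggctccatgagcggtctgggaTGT
Each stretch is 51 bases, or 17 codons. The pair was equal at 40 of 51 bases (78.4%), with a longest run of 11 equal bases.

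The libraries held 22204349 to 32566240 counts. In female sedentary 2 mitochondrial genes took 27.3% of the counts and were at 0 in the other 11 libraries; the filter removed them. Transcripts of the atrial muscle genes Myl7, Sln and Myl4 were high in 3 female libraries. The atrial light chain Myl7 was at 107 CPM (counts scaled to library size) in female exercised 2, at 65.6 CPM in female sedentary 1 and at 23.0 CPM in female sedentary 2, against 0.415 to 2.33 CPM elsewhere. The summed level of the 6 atrial markers ran from 66.3 to 367 CPM in exercised females, 56.6 to 251 CPM in sedentary females, 61.3 to 81.1 CPM in exercised males and 76.0 to 77.9 CPM in sedentary males. Most of the sum in the male libraries was Kcnj3, and Bmp10, a defining atrial gene, had 0 to 4 counts in every library. For sedentary females against males, 4 of the 5 tested atrial markers lay above 0. The other 1 was lower in females at an edgeR adjusted p under 0.05. Haemoglobin and other red cell transcripts summed to 3630 CPM at most in sedentary females and to no more than 293 CPM in any other group. Ventricular muscle genes summed to 57521 to 67047 CPM over the libraries. How each heart was trimmed is not given in the sources used here.

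Per unit of gene length, the ligand Nppb was the most abundant of the 7 and the ligand Nppc the least. Levels compared between genes are in RPKM, the CPM divided by the kilobases of annotated exon. Nppb stood at 576 ± 220 RPKM over the 12 libraries (SD, n = 12), Nppa at 127 ± 83.9, Corin at 39.4 ± 4.95, Npr2 at 13.7 ± 0.615, Npr1 at 5.87 ± 0.583, Npr3 at 2.14 ± 0.825 and Nppc at 0.270 ± 0.191 RPKM. This order held between each pair of neighbours in 12 of 12 libraries, except that Nppa lay above Corin in 11 of 12. The ranges of Nppb and Nppa overlapped, as did those of Nppa and Corin, while the other neighbours did not overlap. Among the receptors, the one that serves the scarce ligand Nppc, Npr2, was thus more abundant than Npr1 in every library, by 2.35 times at the median library. With the length of the longest transcript in place of all exons the order was the same.

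**Figure D1:**
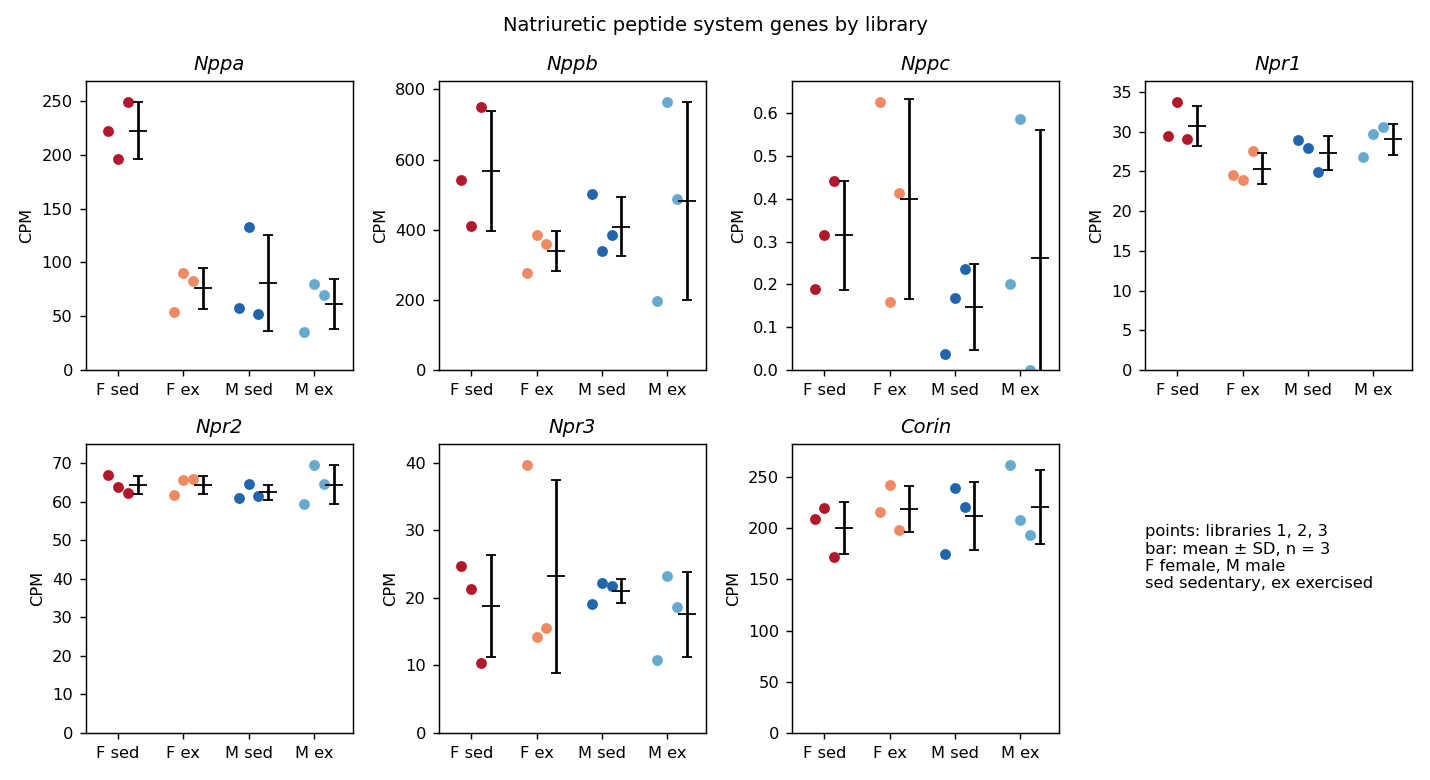
Levels of the 7 genes by library, in CPM on linear axes from 0, with points for libraries 1 to 3 of each group and bars for the mean ± SD (n = 3); F is female, M male, sed sedentary and ex exercised. The 3 sedentary female points of Nppa, 196 to 249 CPM, lie above all 9 others, while the points of Npr2 lie within 59.3 to 69.5 CPM.

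None of the 7 genes passed an adjusted p of 0.05 in any of 6 comparisons (edgeR's quasi-likelihood test, Benjamini-Hochberg adjustment over the 16213 genes). The background was 0% of genes called for exercise in females and 0% in males, 0% for the difference of these effects and 0% for their average, 2.21% for females against males in sedentary hearts and 0.16% in exercised hearts. DESeq2 also called 0 of the 7 for exercise, and called 1 in the sedentary sex comparison. At an unadjusted p under 0.05, 2 of the 7 (Nppa and Npr1) lay below 0 for exercise in females, where 3.93% of all genes were under that p, and 0 of the 7 in males, where 7.84% were. In each other comparison 1 of the 7 was under that p, below 0 in all but sedentary females against males. It was Npr1 for the difference of the effects (4.74% of all genes) and for exercised females against males (9.84%), and Nppa for the average (6.28%) and for sedentary females against males (18.4%). In females the exercised and sedentary libraries did not overlap for 3 of the 7, Nppa, Nppb and Npr1, all lower after exercise. Over all genes 9.79% did not overlap in this comparison and 4.37% were lower without overlap. In males 0 of the 7 were free of overlap, beside 12.3% of all genes. Without the 3 libraries with atrial transcripts, 2 exercised and 1 sedentary female library remain. Groups without overlap stay so when libraries are dropped, so the same 3 genes had to be lower without overlap there too. In that set 5 of the 7 did not overlap, beside 66.8% of all genes, and 3 were lower, beside 32.6%.

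**Figure D2:**
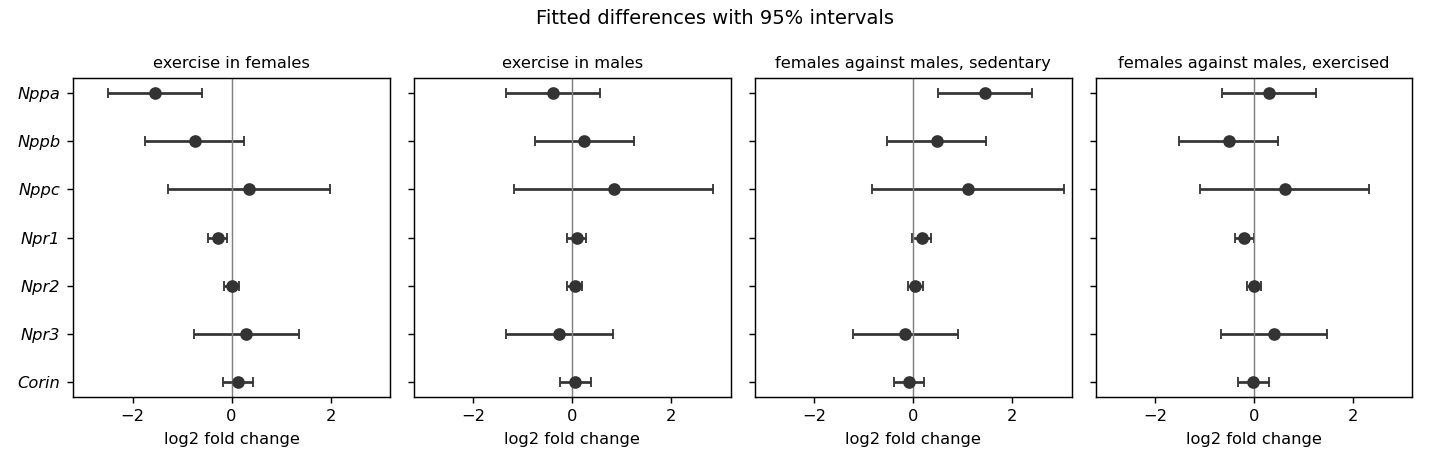
Fitted log2 fold changes of the 7 genes with 95% intervals from edgeR, in 4 comparisons, with the vertical line at 0. In females exercise lies below 0 for Nppa (-2.50 to -0.59) and Npr1 (-0.47 to -0.08). For females against males, Nppa lies above 0 in sedentary hearts (0.50 to 2.41). Npr1 lies just below 0 in exercised hearts (-0.39 to -0.000267).

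Nppa, the atrial peptide, had the largest difference of the 7 for exercise in females. It was at 222, 196 and 249 CPM in sedentary females 1 to 3 and at 54.4, 90.3 and 83.2 CPM in exercised females. The groups were far apart, with the lowest sedentary library above 2 times the highest exercised one. The means were 222 ± 26.3 and 76.0 ± 19.0 CPM (SD, n = 3 each), 2.92 times lower after exercise, or -1.55 ± 0.42 on the log2 scale (SE, 95% interval -2.50 to -0.59). The unadjusted p was 0.00536, rank 37 of 16213 genes, and edgeR's adjusted p was 1.0, so the difference did not pass. In bulk tissue, fewer cells of a type and less RNA per cell cannot be told apart.

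In males Nppa was at 58.2, 133 and 52.1 CPM in sedentary and 35.6, 80.0 and 69.4 CPM in exercised hearts. These groups overlapped, and male sedentary 2 stood above the other 5 male libraries. The difference was -0.39 ± 0.42 (95% interval -1.34 to 0.55, edgeR adjusted p = 0.840), and without male sedentary 2 it was 0.16. The exercise effects of females and males differed by -1.15 ± 0.59 (95% interval -2.49 to 0.18, unadjusted p = 0.0814, edgeR adjusted p = 0.930), which did not pass. Averaged over the sexes the effect was -0.97 ± 0.29 (edgeR adjusted p = 0.782).

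Between the sexes, sedentary females stood above sedentary males. Nppa was 2.74 times higher, or 1.46 ± 0.42 on the log2 scale (95% interval 0.50 to 2.41), without overlap, at an edgeR adjusted p of 0.119. It passed with DESeq2 (adjusted p = 0.0180) and with limma's voom (adjusted p = 0.0301). It also passed in edgeR without male sedentary 2, at 2.01 and an adjusted p of 0.0399. Over all the alternatives the adjusted p ran from 0.0180 to 0.467. In exercised hearts the sexes overlapped, with a difference of 0.30 ± 0.42, and 0 of the 7 genes were free of overlap there, beside 14.3% of all genes. Of the 7 genes, Nppa and Npr1 were free of overlap and higher in sedentary females, beside 25% of all genes without overlap and 12.2% higher without overlap. Npr1 was so by a narrow margin, its lowest female library at 29.1 CPM and its highest male library at 29.0 CPM.

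Atrial muscle expresses Nppa strongly, so the atrial markers are set beside it. Female exercised 2, with the highest Myl7, had 90.3 CPM of Nppa. Female sedentary 3, with 0.972 CPM of Myl7 and 0 counts of the atrial calcium pump inhibitor Sln, had the highest Nppa of all libraries, 249 CPM. With the mean of the 5 tested atrial markers as a covariate, the exercise difference in females was -1.55, and without the 3 libraries with atrial transcripts -1.85. No p-value is given for the latter value, since it leaves only 1 sedentary female library, the one with the highest Nppa. For sedentary females against males, these fits and the other changes of method gave differences of Nppa from 1.42 to 1.62. Ventricular muscle genes summed to 59714 to 60426 CPM in exercised and 57521 to 59572 CPM in the sedentary females, and macrophage markers to 194 to 208 and 149 to 192 CPM, neither with overlap. Red cell transcripts were highest in sedentary females 1 and 2 and at 34.6 CPM in sedentary female 3. Markers of the valves summed to 8.25 to 25.2 CPM in exercised females, 14.4 to 46.1 CPM in sedentary females, 7.03 to 11.3 CPM in exercised males and 8.04 to 11.8 CPM in sedentary males. All 5 valve markers lay below 0 for exercise in females (median -1.01) and above 0 for sedentary females against males (median 1.56). The part of these cell types in the differences of Nppa was not tested.

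**Figure D3:**
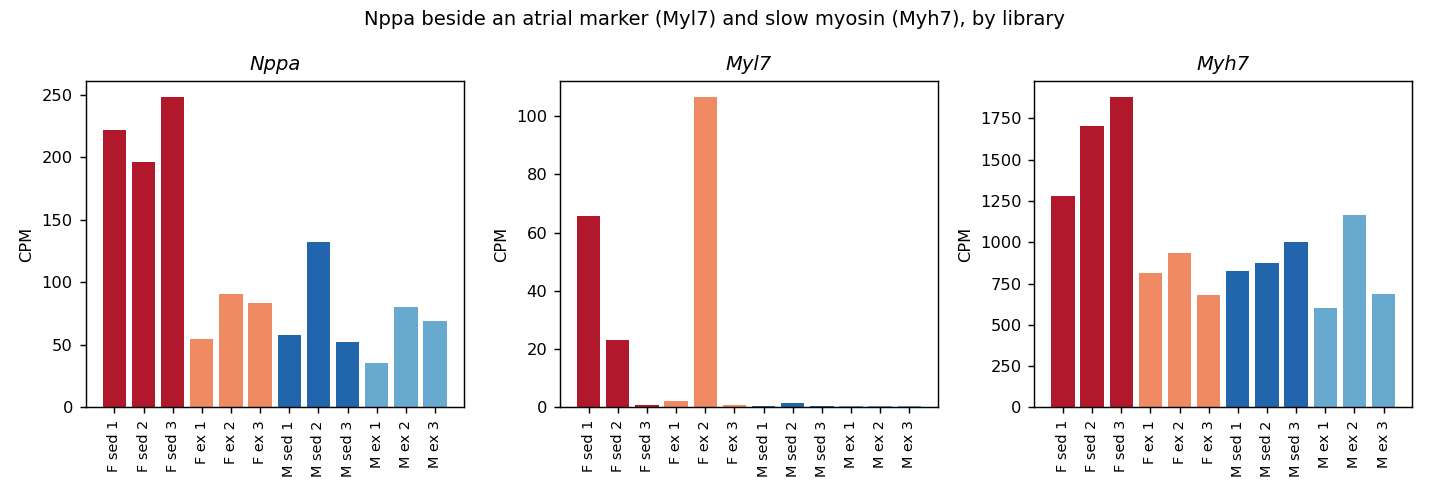
CPM of Nppa, of the atrial light chain Myl7 and of the slow myosin Myh7 in each of the 12 libraries, as bars from 0. Myl7 peaks at 107 CPM in female exercised 2, where Nppa is 90.3 CPM, while Nppa peaks at 249 CPM in female sedentary 3, where Myl7 is 0.972 CPM.

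Nppb, the B-type peptide, was also lower in the exercised females, by less than Nppa. It was at 542, 412 and 749 CPM in sedentary females and at 276, 385 and 359 CPM in exercised females. The coefficient of variation was 30.0% in the sedentary and 16.8% in the exercised group, against 11.8% and 25.0% for Nppa. The Nppb groups did not overlap, although the margin, 412 against 385 CPM, was small beside the spread. The difference was -0.74 ± 0.44 (95% interval -1.74 to 0.26, edgeR adjusted p = 1.0). Without the 3 libraries with atrial transcripts it was -1.24, with 1 sedentary female left, and without sedentary female 3 it was -0.49.

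In males Nppb was at 502, 339 and 386 CPM in sedentary and 198, 763 and 488 CPM in exercised hearts. The exercised males held both the lowest and the highest value of all 12 libraries. The difference was 0.24 ± 0.44 (95% interval -0.76 to 1.24, edgeR adjusted p = 0.915), and it turned to -0.25 without male exercised 2. The exercise effects of the sexes differed by -0.98 ± 0.62 (edgeR adjusted p = 0.930). Sedentary females and males differed by 0.47 ± 0.44 and exercised ones by -0.51 ± 0.44, with overlap in both cases.

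The balance of the 2 cardiac peptides can be read within each library, where scaling cancels. The ratio of Nppa to Nppb, both in RPKM, was 0.370, 0.429 and 0.299 in sedentary females and 0.178, 0.212 and 0.209 in exercised females, without overlap. It was 0.105, 0.353 and 0.122 in sedentary males and 0.162, 0.0947 and 0.129 in exercised males. Male sedentary 2 had a ratio within the range of the sedentary females, and the other 5 male libraries lay below every female library. Nppb stayed above Nppa per length in all 12 hearts. The log2 levels of the pair had a Pearson r of 0.57 and a Spearman rho of 0.47 over 12 libraries, 0.89 in the 6 female and 0.43 in the 6 male libraries. Without the 2 libraries farthest from the median of Nppa the r was 0.34, so the pooled value rests in part on those libraries. This is 1 of 21 pairs among the 7 genes, and the libraries share the scaling.

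The 2 genes lie side by side, which is why their start regions are shown. In GRCm38 Nppb spans chr4:147985788-147987205 and Nppa chr4:148000722-148002079, both on the plus strand with 3 exons each and 13517 bp apart. The 250 bases before each RefSeq start (GRCm38.p6, plus strand, chr4:148000472-148000721 for Nppa and chr4:147985650-147985899 for Nppb) follow, with the searched motifs in capitals:
Nppa: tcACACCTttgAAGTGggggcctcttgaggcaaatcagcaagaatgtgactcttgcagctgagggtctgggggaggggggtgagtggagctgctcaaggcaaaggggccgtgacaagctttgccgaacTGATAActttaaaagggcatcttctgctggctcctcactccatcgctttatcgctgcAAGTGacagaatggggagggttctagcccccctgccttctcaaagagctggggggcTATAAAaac
Nppb: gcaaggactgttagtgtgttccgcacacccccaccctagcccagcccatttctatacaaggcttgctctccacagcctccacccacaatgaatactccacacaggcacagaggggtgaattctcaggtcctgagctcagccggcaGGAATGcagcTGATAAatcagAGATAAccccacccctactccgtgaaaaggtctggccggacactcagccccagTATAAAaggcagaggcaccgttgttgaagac
The motifs were those of GATA factors (AGATAA or TGATAA), Nkx2-5 (AAGTG), T-box factors (AGGTGT), Tead factors (CATTCC), serum response factor (CArG) and MEF2, and the TATA box (TATAAA), searched on both strands. Nppa held TGATAA starting 122 bases before its start, AAGTG at 239 and 65, AGGTGT on the reverse strand at 248 and TATAAA at 9. Nppb held TGATAA at 95, AGATAA at 84, CATTCC on the reverse strand at 105 and TATAAA at 31. The GENCODE model of Nppb begins inside this window, upstream of the RefSeq start. All the Nppb matches listed lie past that GENCODE start, so they are before the RefSeq start only. Neither held a CArG or MEF2 match. Of 32851 promoters of this length in RefSeq, 16.6% held a GATA match, 40.7% AAGTG, 11.8% AGGTGT, 12.6% CATTCC, 1.47% a CArG box, 0.508% a MEF2 match and 12.4% TATAAA. No other gene of the 7 held a GATA match, and Nppc held TATAAA at 29.

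The factors that these motifs are named for are measured in the same hearts. Gata4, which binds GATA sites, averaged 98.2 CPM in the sedentary and 96.1 CPM in the exercised females, a difference of -0.03 ± 0.11, and the T-box factor Tbx5 differed by 0.08 ± 0.29. Nkx2-5, the cardiac homeobox factor, differed by -0.10 ± 0.14 in females and by 0.36 ± 0.15 in males (79.0 against 61.7 CPM, unadjusted p = 0.0307, edgeR adjusted p = 0.627). Of the 16 tested genes of the list of known Nppa and Nppb regulators, 9 lay below 0 for exercise in females and 6 in males, with medians of -0.02 and 0.02, and none passed. Over all genes tested, 50.1% lay above 0 in each of these comparisons with a median of 0.00.

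Other genes around the pair were looked at within 50 kb. Clcn6, a chloride transporter gene on the opposite strand whose end lies 2180 bp past Nppa, was at 15.9, 17.2 and 15.5 CPM in sedentary females and at 11.6, 13.0 and 13.4 CPM in exercised females. The groups did not overlap, as for Nppa and Nppb, and the difference was -0.36 ± 0.13 (unadjusted p = 0.0130, edgeR adjusted p = 1.0). In males it differed by -0.12 ± 0.13. Of the neighbours before Nppb, Plod1 was at -0.11 ± 0.08 and 2510039O18Rik at -0.02 ± 0.15 in females. Gm13054, an antisense gene that overlaps exons of Nppa, averaged 0.176 CPM and was not tested. Whether the counting used strand is not given in the sources used here, and reads of such partners cannot be told apart; this also holds for Npr1, Npr2, Npr3 and Corin, each overlapped in an exon by a gene on the other strand. Only the partner of Npr2, Gm12473, was measurable, at 3.97 CPM on average.

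Nppc, the C-type ligand that vessel lining and other tissues make, was near the limit of detection. Its counts ran from 0, in male exercised 3, to 15, in female exercised 1, where 3 counts, the limit that a count of 0 allows in male exercised 3, equal 0.128 CPM. Group means lay between 0.148 ± 0.101 CPM in sedentary males and 0.400 ± 0.233 CPM in exercised females (SD, n = 3). The intervals of its fold changes were wide, from -1.29 to 1.99 for exercise in females and from -1.17 to 2.84 in males on the log2 scale. Differences of the size fitted were not detectable at this depth. The limit from counts covers counting error only, and the intervals carry the spread between libraries.

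Npr1, the receptor that makes cyclic GMP when either cardiac peptide binds, was lower in exercised than in sedentary females by a small amount. It was at 29.4, 33.7 and 29.1 CPM in sedentary females and at 24.5, 24.0 and 27.6 CPM in exercised females. The groups did not overlap. The difference was -0.28 ± 0.09 (95% interval -0.47 to -0.08, unadjusted p = 0.00837, edgeR adjusted p = 1.0), or 1.21 times lower. Without the 3 libraries with atrial transcripts it was -0.16, with 1 sedentary female left. In males it was at 29.0, 27.9 and 24.9 CPM in sedentary and 26.8, 29.7 and 30.5 CPM in exercised hearts, with overlap and a difference of 0.09 ± 0.09. The exercise effects of the sexes differed by -0.37 ± 0.13 (95% interval -0.64 to -0.09, unadjusted p = 0.0127, edgeR adjusted p = 0.930), which did not pass. Exercised females were at -0.19 ± 0.09 against exercised males and sedentary females at 0.17 ± 0.09 against sedentary males.

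Vessel lining expresses Npr1, so endothelial markers are set beside it. The 6 markers summed to 848 to 967 CPM in exercised females, 874 to 1039 CPM in sedentary females, 948 to 1012 CPM in exercised males and 898 to 916 CPM in sedentary males. For exercise 5 of 6 lay below 0 in females and 6 of 6 above 0 in males. For the difference of the exercise effects 0 of 6 lay above 0, with a median of -0.25, and of the 5 endocardial markers 0 lay above 0, with a median of -0.34. None of these markers passed in edgeR, and their part in the values of Npr1 was not tested.

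Npr2, the receptor for C-type peptide, was the steadiest of the 7. It lay between 59.3 and 69.5 CPM in all 12 libraries, a coefficient of variation of 4.50%, against 9.92% for Npr1, 12.6% for Corin and 65.9% for Nppa. Exercise differed by 0.00 ± 0.07 in females (95% interval -0.14 to 0.15) and 0.05 ± 0.07 in males (-0.10 to 0.19). Changes beyond 0.19 on the log2 scale in either direction thus lie outside both intervals. The sexes differed by 0.04 ± 0.07 in sedentary and 0.00 ± 0.07 in exercised hearts.

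Npr3, the clearance receptor, which in the adult heart is known from the inner lining, the endocardium, had 1 library apart from the rest. It was at 39.6, 14.2 and 15.6 CPM in exercised and 24.7, 21.3 and 10.3 CPM in sedentary females. In males it was at 10.8, 23.2 and 18.7 CPM in exercised and 19.1, 22.2 and 21.8 CPM in sedentary hearts. The groups overlapped in both sexes, and female exercised 1 stood above all others. The difference was 0.30 ± 0.47 in females (95% interval -0.77 to 1.36) and turned to -0.34 without female exercised 1, and it was -0.26 ± 0.47 in males (-1.33 to 0.81).

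The 5 endocardial markers are given beside Npr3, and only Cytl1 and Tmem108 were highest in female exercised 1 as well. Cytl1 was at 22.5 CPM there and at 4.03 to 18.5 CPM in the other libraries, and Tmem108 at 4.58 CPM against 1.25 to 4.14 CPM. Nfatc1, the transcription factor that marks this lining in development, was at 17.4 CPM there and at 14.8 to 21.5 CPM elsewhere. Plvap, which capillaries also express, was at 20.0 CPM in that library and highest in male exercised 2, at 23.7 CPM, where Npr3 was 23.2 CPM. Hapln1, another marker of this layer, was at 0 to 0.753 CPM. The summed level of the 5 endocardial markers ran from 28.4 to 65.2 CPM in exercised females, 31.9 to 60.6 CPM in sedentary females, 31.5 to 58.5 CPM in exercised males and 34.7 to 37.2 CPM in sedentary males. Their part in the levels of Npr3 was not tested.

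**Figure D4:**
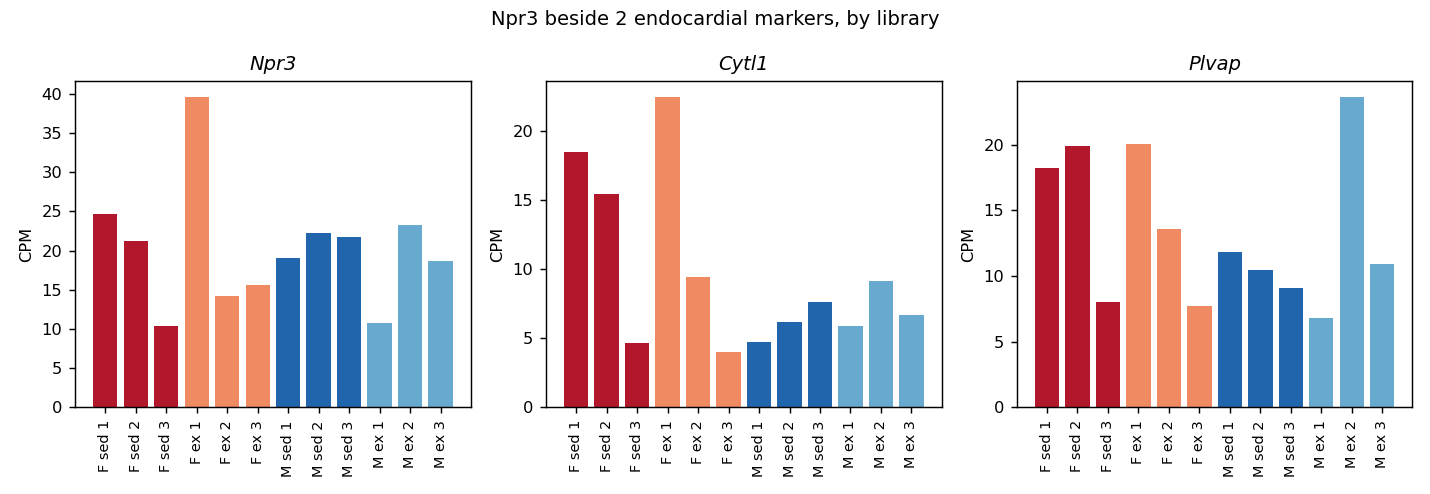
CPM of Npr3 and of the markers Cytl1 and Plvap in each of the 12 libraries, as bars from 0. Npr3 (39.6 CPM) and Cytl1 (22.5 CPM) both peak in female exercised 1, and Plvap peaks in male exercised 2 at 23.7 CPM.

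Corin, the protease that activates the atrial precursor, was abundant and differed little between groups. It was at 209, 220 and 172 CPM in sedentary and 216, 242 and 198 CPM in exercised females. In males it was at 175, 240 and 221 CPM in sedentary and 262, 208 and 193 CPM in exercised hearts. All groups overlapped, and exercise differed by 0.13 ± 0.14 in females (95% interval -0.18 to 0.44) and 0.06 ± 0.14 in males (-0.25 to 0.37). The sexes differed by -0.08 ± 0.14 in sedentary and -0.01 ± 0.14 in exercised hearts.

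Across libraries Corin tended to be lower where Nppb was higher. The library with the least Nppb, male exercised 1 at 198 CPM, had the most Corin, 262 CPM, and female sedentary 3, with 749 CPM of Nppb, had the least Corin, 172 CPM. Male exercised 2, with the most Nppb at 763 CPM, had 208 CPM of Corin, near the median of 212 CPM. The log2 levels had a Pearson r of -0.72 and a Spearman rho of -0.68 over 12 libraries, -0.70 without the 2 libraries farthest in Nppb, -0.66 in the 6 female and -0.75 in the 6 male libraries. Of the 21 pairs it had the r farthest from 0, and it is given as a description, since the libraries share their scaling and the 4 groups are pooled. Among the 16213 genes tested, Corin held rank 16078 by r with Nppb, counted from the highest, so other genes had a lower r.

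**Figure D5:**
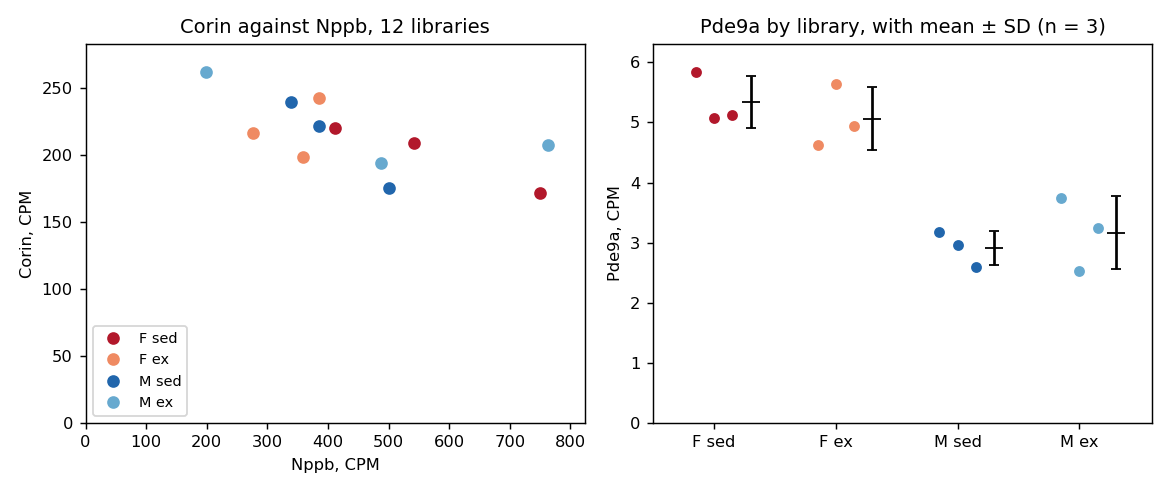
Left, Corin against Nppb in CPM, 1 point for each of the 12 libraries, coloured by group (F female, M male, sed sedentary, ex exercised); Corin is highest, 262 CPM, at the lowest Nppb, 198 CPM, and lowest, 172 CPM, where Nppb is 749 CPM, while the point with the most Nppb, 763 CPM, has 208 CPM of Corin. Right, Pde9a in CPM by library with the mean ± SD (n = 3); all 6 female points lie above all 6 male points.

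Other enzymes that cut or break down the peptides differed little with exercise. Of 8 tested genes on this list, 6 lay above 0 in females and 4 in males, with medians of 0.05 and 0.02, and none passed. Furin, which cuts the B-type and C-type precursors, averaged 77.5 CPM in the exercised and 80.5 CPM in the sedentary females (-0.06 ± 0.15). Pcsk6, which activates Corin, was at 110 and 105 CPM (0.07 ± 0.12). Mme, known as neprilysin, which degrades the peptides, was at 8.19 and 7.92 CPM (0.05 ± 0.19). Between the sexes Mme was lower in sedentary females than in sedentary males without overlap, at 7.92 against 11.3 CPM (-0.51 ± 0.19, edgeR adjusted p = 0.164). The other 7 of the 8 genes lay above 0 in that comparison, with a median of 0.15 over the list beside 0.01 over all genes. In exercised hearts 7 of 8 were above 0 for females against males as well, with a median of 0.13 beside 0.00 over all genes.

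Downstream of the receptors, 1 gene of the cyclic GMP list of 15 passed in 1 comparison and none passed for exercise. Pde9a, a phosphodiesterase that breaks down cyclic GMP, was at 5.34 ± 0.43 CPM in sedentary females and 2.91 ± 0.29 CPM in sedentary males (SD, n = 3), 0.87 ± 0.17 on the log2 scale (edgeR adjusted p = 0.0198). In exercised hearts it was at 5.06 ± 0.52 and 3.16 ± 0.61 CPM, 0.67 ± 0.17 (edgeR adjusted p = 0.185), again without overlap. The call in sedentary hearts was lost without each of the 6 sedentary libraries in turn (edgeR adjusted p from 0.0510 to 0.106) and with the atrial covariate (0.109). The difference itself stayed at 0.80 to 0.94 without each of these libraries and was 0.75 with the covariate. It was 0.81 without the 3 libraries with atrial transcripts, where 1 sedentary female is left. Exercise moved it by -0.08 ± 0.17 in females and 0.12 ± 0.18 in males.

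The exercise values of the cyclic GMP list lay on both sides of 0. In females 10 of 15 lay below 0 and in males 9 of 15, with medians of -0.03 and -0.07. Pde1c, a phosphodiesterase of heart muscle, averaged 46.2 ± 3.32 CPM in the exercised against 56.7 ± 8.99 CPM in the sedentary females (-0.29 ± 0.10, unadjusted p = 0.0139, edgeR adjusted p = 1.0). Abcc4, a transporter that exports cyclic nucleotides, was higher after exercise without overlap in both sexes, by 0.19 ± 0.08 in females and 0.22 ± 0.08 in males (edgeR adjusted p = 1.0 and 0.615). On this list 2 of 15 genes were without overlap in females and 3 of 15 in males, beside 9.79% and 12.3% of all genes. Pde3a, which cyclic GMP inhibits, averaged 87.3 CPM in the exercised and 104 CPM in the sedentary males (-0.25 ± 0.09, edgeR adjusted p = 0.615). Prkg1, the cyclic GMP-dependent kinase, differed by -0.02 ± 0.13 in females, Pde2a by -0.05 ± 0.28 and Pde5a, the target of sildenafil, by 0.09 ± 0.14. Between exercised females and males, Pde1a was higher by 0.61 ± 0.16 (edgeR adjusted p = 0.214) and Abcc5 was at -0.23 ± 0.08 (0.312).

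Other peptide systems that act on vessels were read alongside. Of 14 genes, 8 lay above 0 for exercise in females and 10 in males, with medians of 0.03 and 0.07, and none passed. Ramp3, a partner of the adrenomedullin receptor, averaged 5.75 CPM in the exercised and 4.61 CPM in the sedentary females without overlap (0.32 ± 0.14, unadjusted p = 0.0419, edgeR adjusted p = 1.0). Ednra, an endothelin receptor, was at 41.9 CPM in exercised females and 26.7 CPM in exercised males (0.65 ± 0.16, edgeR adjusted p = 0.204). Adm, adrenomedullin itself, was at 9.24 and 12.7 CPM in the same groups (-0.45 ± 0.16, edgeR adjusted p = 0.333).

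Genes of load and of the fetal heart, among which Nppa and Nppb are usually counted, were read on a list of 13. The list also holds Myh6, Actc1, Atp2a2, Pln and Des, so its signs do not read load alone. For exercise in females 9 of 13 lay below 0 with a median of -0.16, and none passed. The 4 above 0 included Myh6 and Actc1, which are also on the ventricular muscle list. In males 8 of 13 lay below 0, with a median of -0.06. The groups did not overlap for 4 of 13 in females and 0 of 13 in males, beside 9.79% and 12.3% of all genes. Myh7, the slow myosin, averaged 811 ± 126 CPM in the exercised against 1623 ± 310 CPM in the sedentary females (-1.0 ± 0.25, unadjusted p = 0.00284, edgeR adjusted p = 1.0). Ankrd1, a stretch-responsive protein, averaged 1104 ± 76.8 and 1611 ± 313 CPM in these groups, and Acta1, skeletal actin, differed by -0.16 ± 0.52. In exercised and sedentary males Myh7 averaged 818 ± 305 and 903 ± 91.8 CPM. Ankrd1 was higher in the exercised males, at 1499 ± 327 against 1212 ± 295 CPM.

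The genes whose log2 levels ran most like each peptide were taken over the whole table. For Nppa over 12 libraries these were Panx1 (Pearson r 0.90), Atp8b1 (0.90), Bbc3 (0.87), Emb (0.87) and Camkk1 (0.87). Over the 9 libraries with few atrial transcripts none of these was among the first 5, which were led by Gm31520 (0.96) and Cd72 (0.94), and Panx1 was at 0.84. For Nppb they were Prkar1a (0.93), Ckap4 (0.91), Abca5 (0.88), Kcna7 (0.87) and Lmo2 (0.87), and over 9 libraries Prkar1a (0.96), Abca5 (0.93) and Lmo2 (0.93) were again among the first 5. For Npr3 they were Sall1 (0.88), Enpp6 (0.87), St3gal1 (0.86), Gm15708 (0.86) and Kank1 (0.85), and over 9 libraries St3gal1 (0.96) and Sall1 (0.90) came first. These are the highest of 16213 values each and are given as a description.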

How the data were processed

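The authors deposited raw counts per gene in 1 table. Their steps, per the submitters' processing notes, were Trimmomatic 0.36, STAR 2.5.2b on GRCm38 and featureCounts of Subread 1.5.2. Annotation release, strand setting and batches were not given in the sources used here. Libraries of a group differed by more than sampling noise (chi-square per degree of freedom 9.10 to 33.0), so each counts as 1 replicate, and p-values measure the spread between these libraries.

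Counts were tested in R 4.3.3 with edgeR 4.0.16: filterByExpr, trimmed mean of M-values scaling, 1 group-means model over 12 libraries with 8 residual degrees of freedom, robust quasi-likelihood tests and Benjamini-Hochberg adjustment at 0.05. Alternatives used DESeq2 1.42.0, voom of limma 3.58.1, other scalings and filters, fits of only the groups compared, and left-out libraries. On simulated data 89% of log2 changes of 1 and 99% of 2 were called for exercise in females, over 16016 genes. Each rate is pooled over 100 changed genes, and 9 of 15816 unchanged genes were called as well. In the measured data the median SE over all genes was 0.14 in this comparison, against 0.42 for Nppa and 0.44 for Nppb. The pooled rates therefore do not give the chance of a call for the natriuretic peptide genes. Lengths and coordinates came from GENCODE M21 (54349 of 55401 identifiers matched with version), and promoters from RefSeq.

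The 7 genes, the lists and the alternatives were chosen with earlier results of these data known. From each of 5 pathway lists, genes were named from the 3 of smallest p in 4 comparisons and a fixed panel. Genes within 50 kb of Nppa and Nppb were read too, and some items are not reported here. For likeness, the 5 genes of highest r were taken on log2 values with a prior count of 2.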

Additional observations from a re-analysis of the deposited data

How the results depend on the processing

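Nppa, Nppb and Npr1 for exercise in females kept their direction and missed an adjusted p of 0.05 in all 22 alternatives; without 1 library at a time they ran from -1.69 to -1.36, -0.93 to -0.49 and -0.34 to -0.21. In sedentary hearts the sex comparison called 0 of the 7 genes in edgeR and 1, Nppa, with voom and with DESeq2, and 0 to 1 without 1 library at a time. The cause of these changes was not tested.

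Signs turned mostly where the value was small. With voom they did so for Nppb in males (-0.13), Nppc in males (-0.13) and between the sexes' effects (0.55), Npr3 averaged (-0.10) and Npr2 for exercise in females (-0.0181) and for exercised females against males (0.0154). The latter 2 turned with a stricter filter (-8.13e-05 and 0.00359) and with only the groups compared (-0.0021 and 9.52e-05). With upper-quartile scaling Corin (0.0021) and Npr2 (0.0176) turned for exercised females against males, and without the 3 libraries with atrial transcripts Npr2 for sedentary females against males (-0.00655).

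Without 1 library at a time, values whose sign turned ran as follows. For exercise in males these were Nppa from -0.63 to 0.16, Nppb from -0.25 to 0.61, Nppc from -0.45 to 1.41, Npr2 from -0.0123 to 0.10 and Corin from -0.0803 to 0.16. For exercise in females they were Nppc from -0.11 to 0.72, Npr2 from -0.022 to 0.0292 and Npr3 from -0.34 to 0.55. Between the sexes' effects Nppc ran from -1.06 to 0.80, Npr2 from -0.10 to 0.0124, Npr3 from -0.0768 to 0.81 and Corin from -0.0307 to 0.21. Averaged over the sexes Nppc ran from -0.0504 to 0.88, Npr2 from -0.00613 to 0.0504 and Npr3 from -0.30 to 0.14. For females against males, exercised Npr2 ran from -0.0549 to 0.0584, Npr3 from -0.23 to 0.65 and Corin from -0.10 to 0.13, and sedentary Npr3 from -0.40 to 0.13 and Corin from -0.20 to 0.019.

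Counts over all genes also moved. Sedentary females against males called 358 genes in edgeR, 866 with DESeq2, 96 with the atrial covariate, 14 without the 3 libraries and 68 at the fewest without 1 library. In exercised hearts 26 were called in edgeR, 167 with DESeq2, 43 without a filter, 15 with only the groups compared and 17 to 55 without 1 library. DESeq2 called 1 gene for exercise in females, 25 in males, 10 for their difference and 14 averaged, against 0 in edgeR. No paired analysis was possible because the labels give the groups no shared replicate numbers. Among the 7 genes depth limits Nppc most, at 0 to 15 counts a library.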
